A study of Mus musculus with 2 samples.

Results

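The genes described are 8 parts of the insulin signalling chain that runs through PI3K and Akt: the receptor substrates Irs1 and Irs2, the PI3K subunits Pik3ca and Pik3r1, the kinases Pdpk1, Akt1 and Akt2, and the Akt target Gsk3b. They were taken by symbol from the 55536 Ensembl genes of the deposited gene tables, each symbol matched 1 gene, and all 8 were measured in both libraries. The tissue was gastrocnemius, a mixed but mainly fast calf muscle, from male B6CASTF1/J mice, first-generation offspring of a cross between C57BL/6 and CAST/EiJ, at 36 days of age. The labels list 2 biological replicates of this single tissue, with no treatment or second genotype, so every value belongs to 1 group with n = 2 and no p-value can be given. The labels give the biosamples different mouse numbers but the same donor entry, so the spread between them may be partly technical. Total RNA (300 ng) was sequenced, after ribosomal RNA reduction per the spike-in label. Replicate 2 had 38754338 expected counts (estimated reads assigned to genes) and replicate 1 had 36952277.

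Insulin binding activates its receptor, a tyrosine kinase, which phosphorylates the adaptors Irs1 and Irs2. The phosphorylated adaptors bind the regulatory subunit of PI3K and so bring its catalytic subunit to the membrane, where it makes the lipid PIP3. PIP3 draws Akt and Pdpk1 to the membrane, Pdpk1 phosphorylates the activation loop of Akt, and Akt then inhibits Gsk3b and the Foxo factors and releases glucose transporter vesicles. In muscle this chain drives glucose uptake, glycogen synthesis and protein synthesis. Most of its regulation is by phosphorylation, which RNA levels do not report.

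All 8 genes were expressed, and Akt2, the Akt kinase best known for insulin-driven glucose uptake, was the most abundant per unit of length. Levels are in TPM, transcripts scaled to a fixed total, a relative abundance corrected for length. Akt2 averaged 52.4 ± 3.27 TPM (SD, n = 2, as for all values below), 30.1% of the sum over the 8 genes. Irs1 averaged 26.1 ± 8.47 TPM and Akt1 averaged 21.4 ± 1.69 TPM. Gsk3b averaged 19.3 ± 0.467 TPM, Pik3ca 17.9 ± 6.73 TPM and Pdpk1 14.3 ± 0.0707 TPM. Irs2 at 12.2 ± 6.92 TPM and Pik3r1 at 10.6 ± 2.67 TPM were the lowest. In this order, neighbouring genes overlapped between the libraries in all cases but Akt2 against Irs1 and Akt1 against Gsk3b, so most neighbours do not differ beyond their spread. The sum over the 8 genes was 158.18 TPM in replicate 2, against 190.25 TPM in replicate 1.

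**Figure D1:**
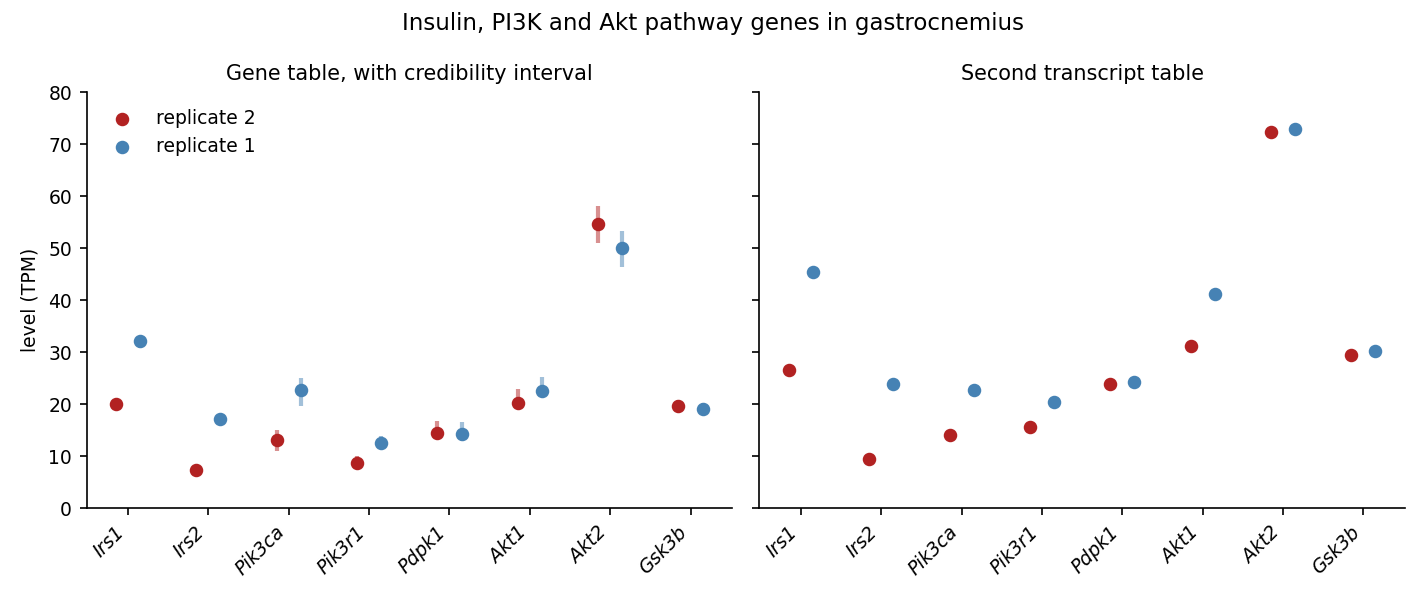
Level of each gene (TPM, vertical axis) in replicate 2 (red) and replicate 1 (blue), from the gene table with its credibility interval (left) and from the second transcript table (right). Akt2 stands above the other genes in both panels. Irs1, Irs2, Pik3ca, Pik3r1 and Akt1 lie lower in replicate 2 than in replicate 1 in both, with overlapping intervals for Akt1.

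Both receptor substrates stood lower in replicate 2, and Irs2 had the largest ratio of the 8 genes. Irs1 lies on the minus strand of chromosome 1 (mm10 chr1:82233101-82291416) and Irs2 on the minus strand of chromosome 8 (chr8:10984681-11008458). Irs1 is the adaptor most studied in muscle glucose uptake, and Irs2 is the one best known from liver and pancreatic beta cells. Irs1 had 20.11 TPM in replicate 2 (credibility interval 19.2 to 20.2) and 32.09 TPM in replicate 1 (30.8 to 32.1), a log2 ratio of -0.67. Irs2 had 7.26 TPM in replicate 2 (6.74 to 7.48) and 17.05 TPM in replicate 1 (16.2 to 17.3), a log2 ratio of -1.22. A ratio here divides replicate 2 by replicate 1 after 0.1 was added to each TPM, so differences of low genes are understated. The level of the credibility intervals was not stated in the notes read here, and they cover read assignment and counting only. An interval need not hold the TPM it belongs to, as for Irs1 in replicate 1. The counts behind Irs2 were 1431 in replicate 2 and 3350 in replicate 1. For both adaptors the intervals of the libraries did not overlap. Irs1 was the more abundant adaptor in both libraries, 2.77 times Irs2 in replicate 2 and 1.88 times in replicate 1. In bulk tissue, fewer cells of a type and less RNA per cell cannot be told apart.

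Irs1 and Irs2 each have 1 annotated transcript, so their levels do not depend on how reads were split between forms. Irs1-201 is 9144 bases long with 2 exons and a 3′ untranslated region of 4525 bases, and Irs2-201 is 6323 bases with 2 exons. The median leading transcript of the 9909 protein-coding genes at 1 TPM or more was 2696 bases with an 861-base 3′ untranslated region. A share of 30.1% of the 100-base windows of Irs1 occurred on the opposite strand in Gm9747, which had 0 counts in both libraries.

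The promoters of these adaptors carry the same pair of short motifs close together, which is why both are printed. CACGTG is the E-box and TGTTTTG an insulin response element. In mouse liver, TFE3 is known to bind the E-box and Foxo factors the response element of the Irs2 promoter. The sequences are the 250 bases before the RefSeq start (build GRCm38.p6), 5′ to 3′ on the gene's strand, with motif matches in capitals, at chr1:82291440-82291689 (minus strand) and chr8:11008930-11009179 (minus strand).
Irs1 promoter: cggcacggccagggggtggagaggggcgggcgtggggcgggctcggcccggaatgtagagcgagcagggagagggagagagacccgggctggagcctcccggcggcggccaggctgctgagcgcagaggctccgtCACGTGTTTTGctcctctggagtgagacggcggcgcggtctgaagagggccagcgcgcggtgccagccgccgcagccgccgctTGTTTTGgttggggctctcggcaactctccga
Irs2 promoter: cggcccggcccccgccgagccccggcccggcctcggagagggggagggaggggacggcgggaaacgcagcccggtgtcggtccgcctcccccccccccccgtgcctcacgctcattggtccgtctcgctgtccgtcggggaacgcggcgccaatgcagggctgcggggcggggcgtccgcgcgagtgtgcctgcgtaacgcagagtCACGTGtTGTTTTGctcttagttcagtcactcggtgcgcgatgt
In Irs1 the first bases of the motifs were 4 bases apart, so that the motifs overlap, and in Irs2 they were 7 bases apart. Irs1 held a further TGTTTTG nearer to its start. All 14 promoters listed for the 8 genes (250 bases before to 50 after a start) were searched on both strands. No other promoter of the 8 genes held either motif, and no promoter of the 8 held the cyclic AMP response element TGACGTCA. The forkhead site TGTTTAC was found in 1 Akt1 promoter. Among all 32851 promoters in the RefSeq table, 7.15% held CACGTG, 6.28% held TGTTTTG, 0.408% held both, and 9 promoters (0.0274%) held them with first bases at most 10 apart. TGTTTTG was chosen with the Irs2 promoter in view, and the 10-base limit was set after the spacing was seen. These matches are descriptions of letters and were not related to the levels.

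The catalytic PI3K subunit also stood lower in replicate 2, by a size that depends on how 1 short transcript is counted. Pik3ca (plus strand, chr3:32397671-32468486) encodes the p110 alpha catalytic subunit. It had 13.1 TPM in replicate 2 (10.9 to 15.0) and 22.6 TPM in replicate 1 (19.6 to 25.0), a log2 ratio of -0.78, and the intervals did not overlap. Its coding form Pik3ca-203 had 9.88 TPM in replicate 2, against 13.6 TPM in replicate 1. Pik3ca-204, a retained-intron model of 440 bases, had 2.63 TPM in replicate 2 (0.655 to 4.80) and 8.59 TPM in replicate 1 (5.76 to 11.3), from 28.4 and 92.5 expected counts in the same order. Of its 440 bases, 422 are shared with Pik3ca-203, and its 18 own bases are the capitals at the 5′ end printed here (chr3:32461677-32461736, plus strand), shown because they are all that sets the model apart.
Pik3ca-204: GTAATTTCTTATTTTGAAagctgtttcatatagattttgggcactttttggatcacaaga
Over protein-coding transcripts alone the log2 ratio of Pik3ca was -0.42, and in the second transcript table, where Pik3ca-204 had 0 TPM in replicate 2, against 2.03 TPM in replicate 1, the ratio for the gene was -0.69. The ratio kept its direction in all 8 alternatives.

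The regulatory subunit gave the same direction with a smaller difference. Pik3r1 (minus strand, chr13:101680563-101768217) encodes the p85 alpha subunit, which binds phosphorylated adaptors, and shorter forms that start further downstream. It had 8.75 TPM in replicate 2 (8.45 to 10.1) and 12.5 TPM in replicate 1 (11.8 to 13.9), a log2 ratio of -0.51, with intervals apart. The long form Pik3r1-202, of 724 codons, had 7.66 TPM in replicate 2, against 9.31 TPM in replicate 1. The short form Pik3r1-201, of 454 codons, had 0.47 TPM in replicate 2, against 1.06 TPM in replicate 1, and 2.03 and 3.31 TPM in the second table. The forms share 1262 coding bases and differ before them, as these stretches show, with the bases of each form's own in capitals and the start of the shared part in lower case. Both are on the minus strand of chromosome 13 and span an intron, Pik3r1-202 within chr13:101690570-101701736 and Pik3r1-201 within chr13:101690570-101692288. That of Pik3r1-201 begins at its first codon, and that of Pik3r1-202 shows only the last of its own 910 coding bases.
Pik3r1-202: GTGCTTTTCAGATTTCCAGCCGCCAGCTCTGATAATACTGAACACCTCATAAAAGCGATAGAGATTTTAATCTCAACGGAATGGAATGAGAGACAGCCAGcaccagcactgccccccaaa
Pik3r1-201: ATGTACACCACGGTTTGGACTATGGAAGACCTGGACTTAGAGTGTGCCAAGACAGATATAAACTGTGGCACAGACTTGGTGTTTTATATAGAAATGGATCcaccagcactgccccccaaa

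Below PI3K the genes differed little between the libraries in the gene table. Pdpk1 (minus strand, chr17:24073680-24150924), the kinase of the Akt activation loop, had 14.4 TPM in replicate 2 (13.3 to 16.8) and 14.3 TPM in replicate 1 (12.9 to 16.5), a log2 ratio of 0.01. Akt1 (minus strand, chr12:112653821-112674884), the broadly expressed Akt kinase linked to growth, had 20.2 TPM in replicate 2 (19.5 to 22.9) and 22.6 TPM in replicate 1 (21.8 to 25.2), a log2 ratio of -0.16. Akt2 (plus strand, chr7:27591552-27640826) had 54.7 TPM in replicate 2 (50.9 to 58.0) and 50.1 TPM in replicate 1 (46.3 to 53.2), a log2 ratio of 0.13. The intervals of the libraries overlapped for these kinases and for Gsk3b. Gsk3b (plus strand, chr16:38089001-38246084), a kinase that phosphorylates glycogen synthase and is inhibited by Akt, had 19.7 TPM in replicate 2 (18.5 to 20.8) and 19.0 TPM in replicate 1 (17.9 to 20.3), a log2 ratio of 0.05. Across the 8 alternatives the ratio was negative every time for Akt1. It reached -0.39 in the second transcript table, where that of Pik3r1 was -0.38. For Pdpk1, Akt2 and Gsk3b the sign of the ratio depended on the alternative.

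The Akt kinases are close paralogs, so their reads could in principle be confused. The coding sequences of Akt2-201 and Akt1-201 were 77.7% identical over 1437 aligned bases, and the longest run without a difference was 32 bases. That run is printed with its surroundings, the differing bases in capitals, from chr7:27636375-27636442 (plus strand) and chr12:112656813-112656880 (minus strand).
Akt2-201: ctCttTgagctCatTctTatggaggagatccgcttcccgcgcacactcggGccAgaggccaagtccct
Akt1-201: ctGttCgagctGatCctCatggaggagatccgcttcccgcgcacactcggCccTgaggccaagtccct
No 100-base window of Akt1 occurred in another gene, and for Akt2 4.01% of windows also occurred in the processed pseudogene Akt2-ps. Akt2-ps itself was listed at 4.51 TPM in replicate 2, against 5.27 TPM in replicate 1, so a part of the Akt2 signal is uncertain.

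Against all genes, 1 of the 8 passed the full rule for a difference, which asked for a mean expected count of at least 50, at least a 2-fold ratio and credibility intervals that do not overlap. Irs2 passed it in the lower direction, where 206 of 11632 genes tested did (1.77%), and no member passed it in the higher direction, where 52 genes did (0.447%). At 1.5-fold, 3 of the 8 (Irs1, Irs2 and Pik3ca) were lower in replicate 2, against 4.68% of all genes, and 0 were higher, against 1.75%. Alternatives for Pik3ca lay on both sides of 1.5-fold. Its log2 ratio fell short of that over protein-coding transcripts alone (-0.42) and in expected counts, however scaled between the libraries (-0.42 to -0.50). In the second transcript table it was beyond 1.5-fold, at -0.69. With non-overlapping intervals at any fold, 4 of the 8 were lower, adding Pik3r1, against 9.39% of all genes, and 0 were higher, against 9.5%. Among all tested genes, 1.10% had a lower ratio than Irs2, 4.09% than Pik3ca, 5.62% than Irs1 and 9.35% than Pik3r1. For Akt1 the share was 28.6%, and for Pdpk1, Gsk3b and Akt2 it lay between 50.8% and 69.6%. The median log2 ratio was -0.34 over the 8 genes and 0.00 over the 13033 genes averaging 0.5 TPM or more. In the second transcript table the median over those 13033 genes was -0.10, a shift that applies to every ratio read from that table. The 8 genes were chosen with earlier results of these data known, so setting them beside all genes is not an independent comparison.

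**Figure D2:**
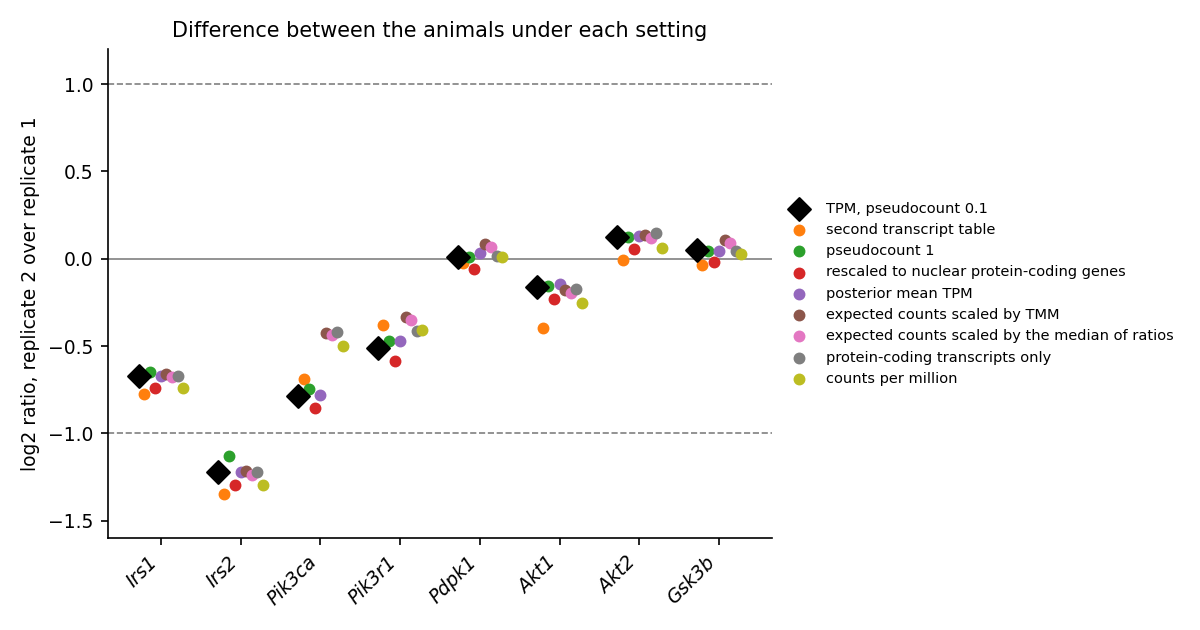
Log2 ratio of each gene, replicate 2 over replicate 1 (vertical axis), as reported (black diamonds) and under 8 alternatives (coloured points), with dashed lines at 2-fold. Irs2 lies beyond the lower line under every alternative, Irs1, Pik3ca, Pik3r1 and Akt1 lie below 0 under every alternative, and Pdpk1, Akt2 and Gsk3b lie on both sides of 0.

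Irs1, Pik3ca and Pik3r1 were the leading paralogs of their families. Irs1 took 69.1% ± 5.52 of the summed TPM of the insulin receptor substrates and Irs2 30.5% ± 5.85. Irs3 was at 0.19 TPM in replicate 2, against 0.11 TPM in replicate 1, and Irs4 had 0 counts in both libraries, which allows up to 0.0774 CPM (counts scaled to the same fixed total) in replicate 2 and 0.0812 in replicate 1. Pik3ca took 74.8% ± 10.9 of the class I catalytic subunits, with its retained-intron form included. In protein-coding transcripts alone Pik3ca had 10.47 TPM in replicate 2, against 14.03 TPM in replicate 1. The next was Pik3cd, the subunit best known from leukocytes, at 4.05 TPM in replicate 2, against 3.12 TPM in replicate 1. Pik3cb had 2.05 TPM in replicate 2, against 1.41 TPM in replicate 1, of which 0.45 and 0.26 TPM lay in protein-coding transcripts. Pik3cg had 0.32 and 0.25 TPM in the same order. Pik3r1 took 57.2% ± 6.94 of the class IA regulatory subunits, ahead of Pik3r2 at 5.81 TPM in replicate 2, against 5.45 TPM in replicate 1, and of Pik3r3 at 2.17 and 2.19 TPM.

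Akt2 was higher than Akt1 in both libraries, and took 70.9% ± 2.91 of their summed TPM. It was 2.70 times Akt1 in replicate 2 and 2.21 times in replicate 1. Gsk3b was lower than its paralog Gsk3a in both libraries. Gsk3a had 25.95 TPM in replicate 2, against 23.06 TPM in replicate 1, and Gsk3b took 44.1% ± 1.46 of the pair. In counts not divided by length, Gsk3b instead took 72.0% of the pair, and its leading transcript is 8303 bases long with a 3′ untranslated region of 5515 bases.

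**Figure D3:**
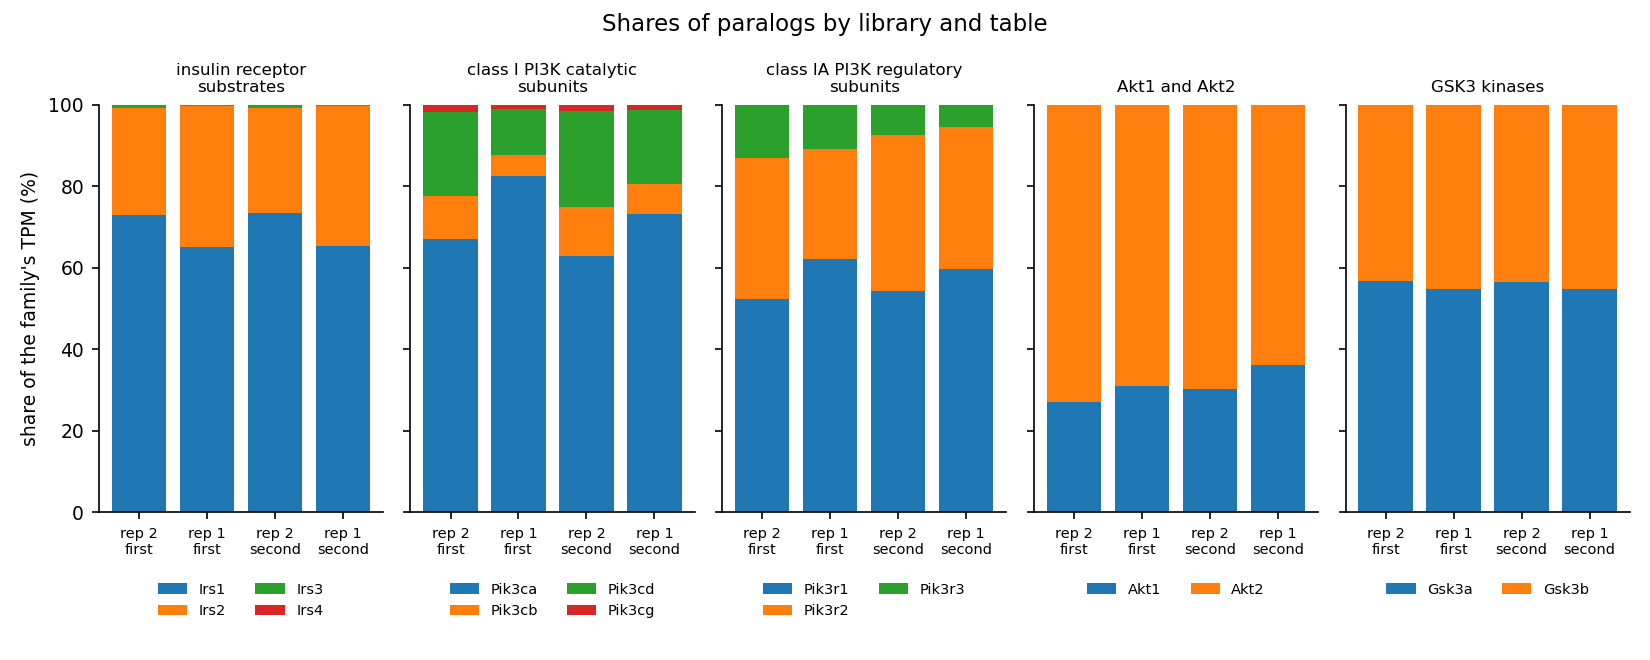
Share of each paralog in its family's summed TPM (percent, vertical axis, bars from 0) for replicate 2 and replicate 1 in the gene table (first) and the second transcript table (second). Irs1, Pik3ca and Pik3r1 hold the largest share in their families in all 4 bars, Akt2 exceeds Akt1 in all 4, and Gsk3a exceeds Gsk3b in all 4.

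The 8 genes have 52 annotated transcripts, 35 of them protein coding, and 6 of the genes have several. A form was called supported where both transcript tables listed it at 10% or more of its gene in both libraries, which held for 9 forms: 1 for each gene and a second for Gsk3b. The leading form was the same in both tables for 7 genes. Pik3r1-202 took 81.0% ± 9.32 of Pik3r1 in the first table and 59.6% ± 1.23 in the second. Akt1-201 took 89.9% ± 2.90 of Akt1 in the first table and 71.5% ± 2.95 in the second. Pik3ca-203 took 67.8% ± 10.8 of Pik3ca in the first table and 91.8% ± 4.87 in the second.

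Other forms depended on the table. Akt2-201 led in the first table at 59.6% ± 4.50 of Akt2, whereas in the second it took 35.9% ± 4.38 and Akt2-204, which has the same 481 codons, took 38.3% ± 4.72. Pdpk1-202 took 60.9% ± 1.23 of Pdpk1 in the first table and 46.1% ± 1.87 in the second. Pdpk1-211, a short model of 652 bases, was listed at 0 in the first table and at 8.33 TPM in replicate 2, against 8.72 TPM in replicate 1 in the second. Akt1-208 was also listed at 0 in the first table, and at 14.3% of Akt1 in replicate 2 and 24.8% in replicate 1 in the second. Pdpk1-208 went the other way, at 14.7% of Pdpk1 in replicate 2 and 23.9% in replicate 1 in the first table and at 0 in the second. Among further Akt2 forms, Akt2-206 averaged 12.9% of the gene in the first table and was at 0 in the second, as was Akt2-214, which took 12.6% in replicate 2 and 9.41% in replicate 1 in the first table. Akt2-207 averaged 1.96% in the first and 11.2% in the second. Pdpk1-201, which ends in a short 3′ untranslated region, averaged 12.6% of Pdpk1 in the first table, and took 10.9% in replicate 2 and 9.10% in replicate 1 in the second. For such forms no level is given as established.

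Gsk3b was the gene with a pair of supported forms, and they differ by an exon in the coding sequence. Gsk3b-201 encodes 420 codons and Gsk3b-202 433 codons, through an extra exon of 39 bases (chr16:38217113-38217151, plus strand). The longer protein is known as GSK3 beta 2 and was described mainly in brain. Both junctions are printed, the exon in capitals with flanking bases of the neighbouring exons in lower case.
Gsk3b-202: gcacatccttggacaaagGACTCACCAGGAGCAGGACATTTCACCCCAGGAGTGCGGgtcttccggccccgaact
Gsk3b-201: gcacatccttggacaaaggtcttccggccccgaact
In the first table Gsk3b-202 took 15.9% of Gsk3b in replicate 2 and 19.3% in replicate 1. In the second table it took 28.4% in replicate 2 and 28.9% in replicate 1. These models also differ in their untranslated regions, 5515 bases of 3′ sequence in Gsk3b-201 and 210 in Gsk3b-202, so the share does not measure the exon alone.

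**Figure D4:**
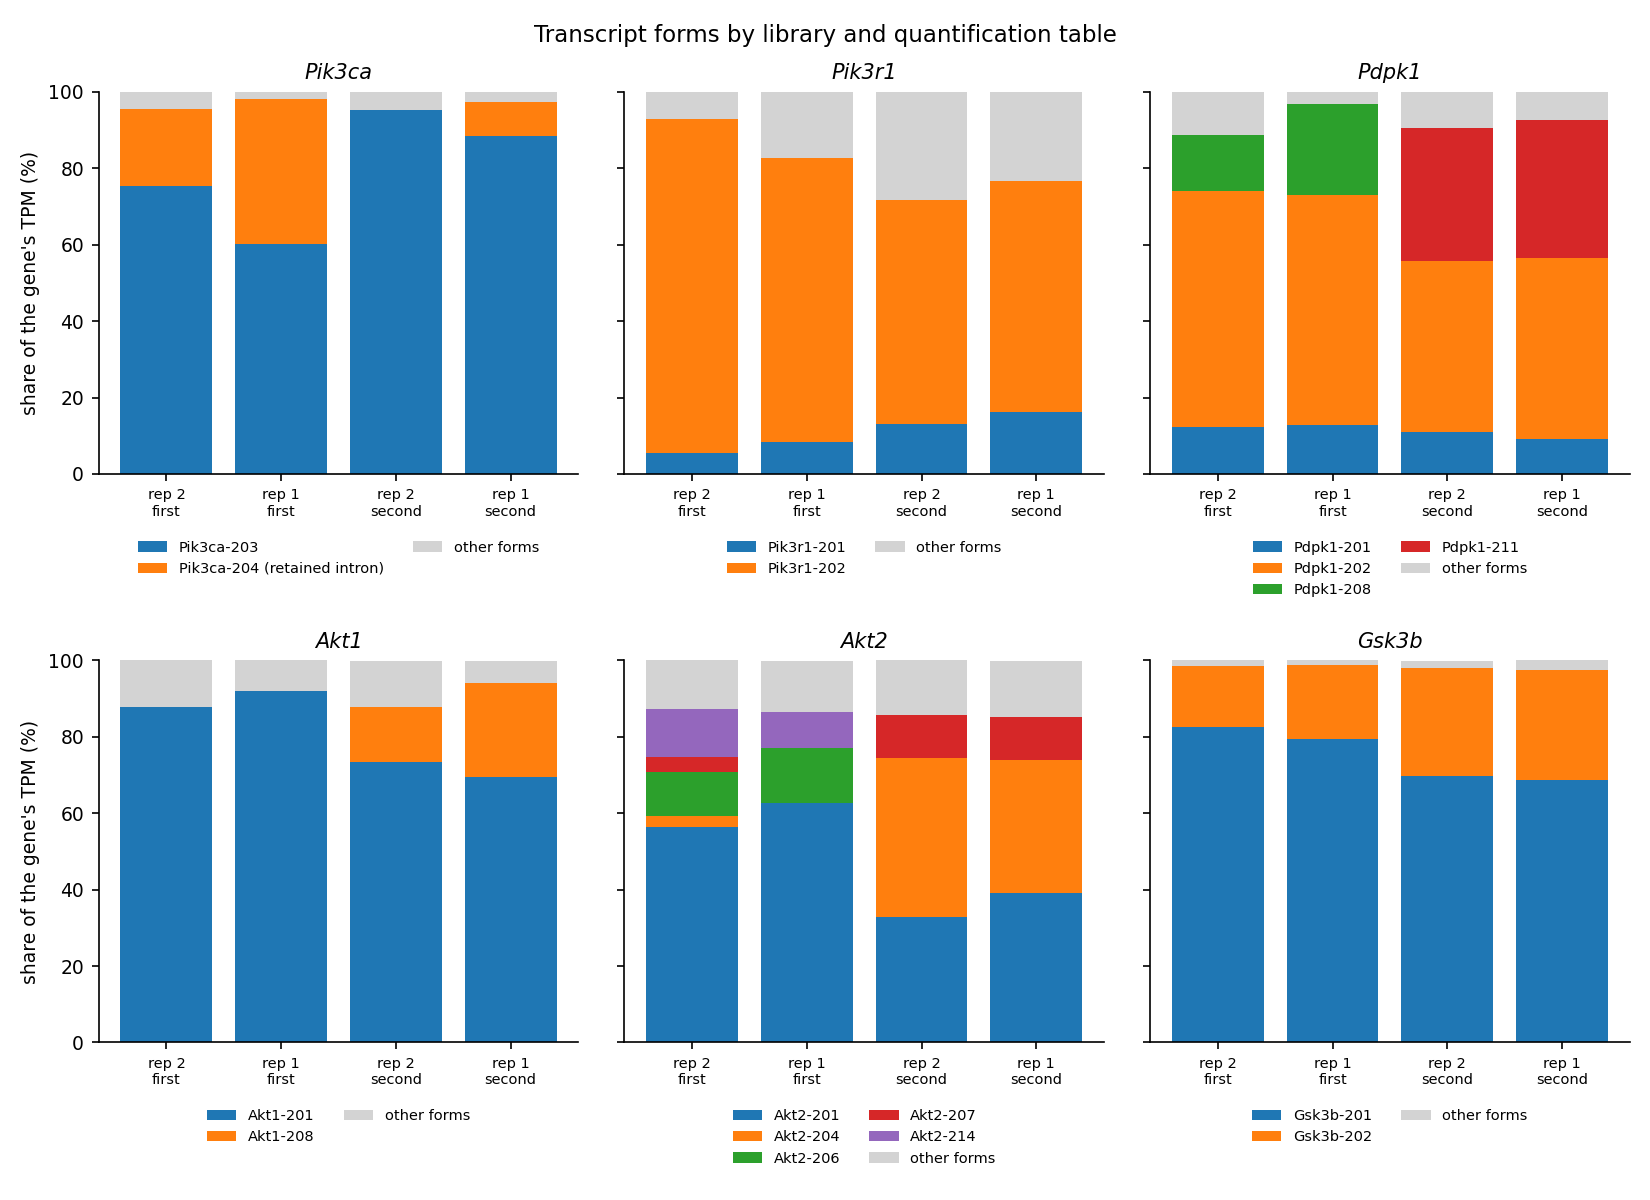
Share of each transcript in its gene's TPM (percent, vertical axis, bars from 0) for the 6 genes with several transcripts, in replicate 2 and replicate 1 from the first and the second transcript table. Gsk3b-201 and Gsk3b-202 appear in all 4 bars, while Pdpk1-211 and Akt1-208 appear only in the second table.

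The rest of the pathway, 65 genes in 8 lists, was examined for the same differences. Of these, 58 were at 1 TPM or more in both libraries, and none of the 60 averaging 0.5 TPM or more passed the full rule. Among all genes tested, 1.77% passed it in the lower direction and 0.447% in the higher. Over the 60 the median log2 ratio was 0.11, with 22 lower and 38 higher in replicate 2. Their intervals were apart for 3 lower and 10 higher genes, against 9.39% lower and 9.5% higher among all genes tested. The 3 lower ones, named after their values were seen, were Grb10, Trim63 and Cited2.

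Upstream, the insulin receptor Insr had 19.84 TPM in replicate 2, against 18.17 TPM in replicate 1, and was 7.09 and 6.51 times its relative Igf1r in the same order. The median of the 10 counted receptors, adaptors and their brakes was 0.07. Grb14, an adaptor that inhibits the insulin receptor, was the one gene of all lists beyond 1.5-fold with intervals apart. Among all genes tested, 1.75% were higher by that measure and 4.68% lower. Grb14 had 9.33 TPM in replicate 2, against 4.95 TPM in replicate 1, a log2 ratio of 0.90, and 0.43 in the second table. Its relative Grb10 went the other way, at 19.26 TPM in replicate 2, against 26.88 TPM in replicate 1. Grb2, which couples receptors to Ras, had the highest mean of this list in the gene table, at 26.6 TPM in replicate 2, against 22.6 TPM in replicate 1. In the second table Grb10 was the higher, with a mean of 31.3 TPM, and Grb2 averaged 25.3 TPM.

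Around PI3K, the 5 counted other subunits had a median of 0.19, and Pik3cb had the largest ratio at 0.51. Pik3r2 was the highest of them, and Pik3r5, a regulator of the gamma subunit that averaged too little to be counted, was the lowest of the list at 0.23 TPM in replicate 2, against 0.25 TPM in replicate 1. The 6 phosphatases that remove phosphates from these lipids had a median of -0.06. Inppl1, which encodes SHIP2, was the highest at 38.98 TPM in replicate 2, against 29.44 TPM in replicate 1. Inpp5d, which encodes SHIP1 of blood cells, was the lowest at 2.13 TPM in replicate 2, against 2.32 TPM in replicate 1.

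For Akt itself, the subunits of mTORC2, the kinase complex that phosphorylates its tail, had a median of 0.19 over 4 genes. Mapkap1 was the highest at 24.1 TPM in replicate 2, against 21.9 TPM in replicate 1, and Rictor, the subunit that defines mTORC2, the lowest at 2.97 and 2.84 TPM. Mlst8 had the largest ratio, 0.49. The 6 counted Akt brakes had a median of 0.02, with ratios above 0 for all 6 but intervals apart for none. In the second transcript table most of these ratios were below 0, with a median of -0.05, beside -0.10 over all genes. Ppp2r2a, a subunit of the phosphatase that dephosphorylates Akt, was the highest at 19.8 TPM in replicate 2, against 19.6 TPM in replicate 1. In protein-coding transcripts alone Ppp2r2a had 6.52 and 6.13 TPM, below Ppp2ca at 13.76 and 13.37 TPM, in the same order. Phlpp1 had the largest ratio among brakes averaging 1 TPM or more, at 0.14. Phlpp2, which averaged 0.715 TPM, had a ratio of 0.20. Trib3, outside the 6 because it averaged under 0.5 TPM, was the lowest of the list at 0.25 TPM in replicate 2, against 0.42 TPM in replicate 1.

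Downstream, the 16 Akt substrates and effectors had a median of 0.18, with 11 higher and 5 lower in replicate 2. Intervals were apart for 6 in the higher direction, against 9.5% of all genes tested, and for none in the lower, against 9.39%. Slc2a4, the insulin-responsive glucose transporter GLUT4, was the highest and had the largest ratio, at 154.86 TPM in replicate 2, against 110.59 TPM in replicate 1, a log2 ratio of 0.49. The glycogen synthase Gys1 had 111.55 TPM in replicate 2, against 82.83 TPM in replicate 1, a log2 ratio of 0.43. The lowest was Pfkfb2, which makes an activator of glycolysis, at 3.88 TPM in replicate 2, against 3.91 TPM in replicate 1.

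**Figure D5:**
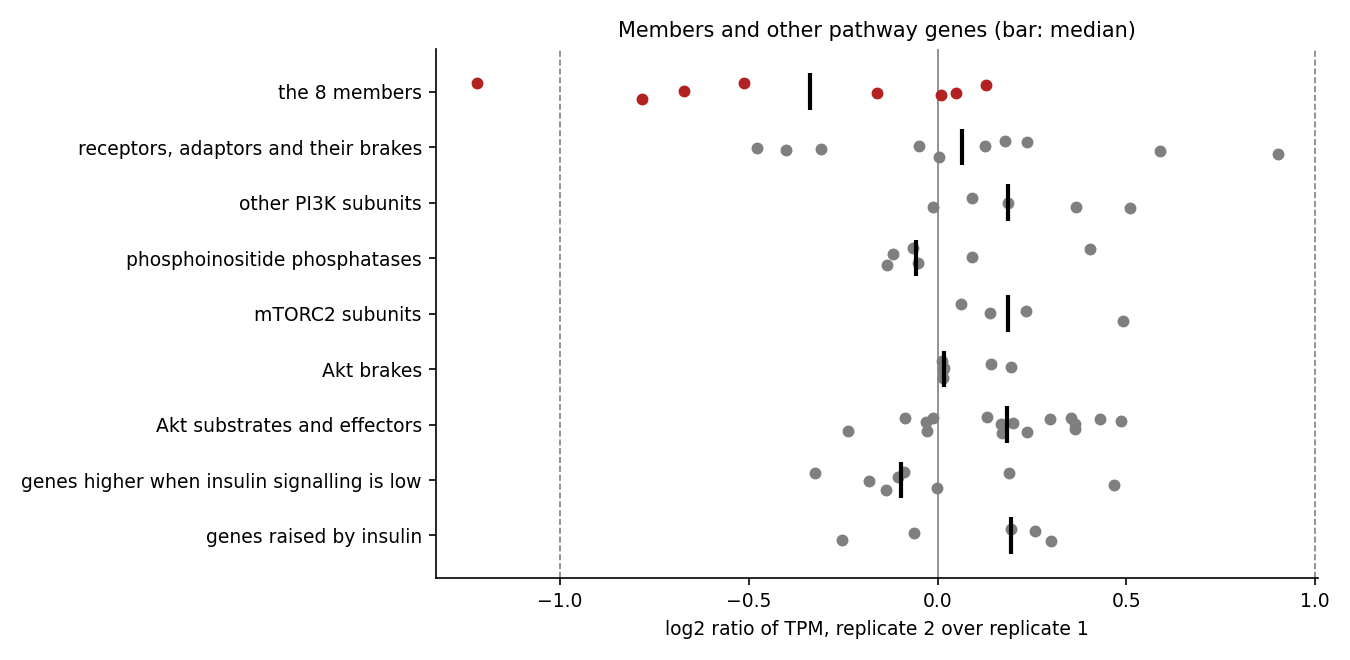
Log2 ratio, replicate 2 over replicate 1 (horizontal axis), of the 8 genes (red) and of the other pathway genes averaging 0.5 TPM or more (grey), with a bar at each list's median and dashed lines at 2-fold. The 8 genes have a median of -0.34, the lowest of the groups shown, and the substrates and effectors have a median of 0.18.

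Muscle fibre markers summed to 78046.5 TPM in replicate 2, against 73142.3 TPM in replicate 1, 4 of 6 markers being higher in replicate 2, so the defining genes of the labelled tissue were abundant in both. The summed markers of several other cell types differed between the libraries. Fibroblast markers summed to 677.58 TPM in replicate 2, against 1360.67 TPM in replicate 1, 5 of 5 being lower. Col1a1 and Col1a2, the highest of them, had log2 ratios of -1.16 and -1.04. Those of Pdgfra, Dcn and Lum were -0.43, -0.44 and -0.37. Schwann cell markers summed to 75.1 TPM in replicate 2, against 342.75 TPM in replicate 1, 5 of 5 lower, and tendon cell markers to 62.1 and 80.98 TPM, 4 of 4 lower. Macrophage markers summed to 10.79 TPM in replicate 2, against 17.57 TPM in replicate 1, 4 of 4 lower, and adipocyte markers to 46.48 and 26.69 TPM, 4 of 5 higher. Intervals overlapped for the Schwann cell marker Sox10, the tendon cell marker Scx, the macrophage markers Cd68 and Adgre1, and the adipocyte markers Plin1 and Lep. Endothelial markers were 42.22 TPM in replicate 2, against 40.67 TPM in replicate 1, 2 of 4 being lower. Smooth muscle and pericyte markers were 96.94 and 117.94 TPM, 2 of 4 lower. Among these markers intervals were apart for Kdr (log2 ratio 0.90), Acta2 (-0.67) and Rgs5 (-0.20). Satellite cell markers were 1.83 TPM in replicate 2, against 1.39 TPM in replicate 1, 2 of 3 higher. Red blood cell markers were 211.62 and 249.45 TPM, 2 of 3 lower. B or T cell markers were 0.17 and 0.12 TPM, 2 of 4 higher, with Cd3e at 0. The part of these cell types in the lower adaptor and PI3K values was not tested.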

How the data were processed

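The members and lists were chosen with earlier results of these data known. Per the labels, the libraries were total RNA with ERCC spike-ins. Per the deposited notes, transcriptome alignments (mm10, GENCODE M21) gave the gene table and a first transcript table, and reads with an index gave a second transcript table. Which aligner and quantifiers were run is not given in the sources used. The authors deposited expected counts, TPM, posterior mean TPM, FPKM and each transcript's percent of its gene. They also deposited credibility bounds, which are a score here.

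All calculations used Python 3.11.15 with pandas 2.3.3, and edgeR 4.0.16 for TMM factors. Ratios are log2 of TPM plus a pseudocount of 0.1, replicate 2 over replicate 1. The 11632 genes tested had a mean expected count of at least 50. A chi-square of 35.1 per degree of freedom over 14984 genes showed that the libraries differ by more than sampling noise. A count of 0 allows 3 reads. The rule was checked on simulated counts that held sampling noise only. The planted changes were larger than 2-fold, and intervals were computed from the simulated counts. The check therefore did not cover changes near 2-fold or the deposited bounds. Because the real libraries differ by more than sampling noise, it also cannot show how often the rule calls genes between them. Named genes were the members, their paralogs, every transcript at 10% or more of its gene, and, in each list, the genes with the highest level, the lowest level and, among those averaging 1 TPM or more, the largest ratio. Of the list genes, Insr, Igf1r, Phlpp2, Ppp2ca, Gys1, Grb10, Trim63 and Cited2 were named outside this rule. Alternatives are in the closing section. One gene of the lists is not reported here and was left out of every list, family share and count over the lists. No protein sequences were used here. The printed sequences, motif searches and window searches used the reference build only, and the CAST/EiJ alleles of these mice were not checked.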

Additional observations from a re-analysis of the deposited data

How the results depend on the processing

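No paired analysis was possible because the 2 libraries form a single group. Over 8 alternatives the ratios ranged from -1.35 to -1.13 for Irs2, from -0.78 to -0.65 for Irs1, from -0.85 to -0.42 for Pik3ca, from -0.58 to -0.33 for Pik3r1 and from -0.39 to -0.15 for Akt1. Those of Pdpk1 (-0.06 to 0.08), Akt2 (-0.01 to 0.15) and Gsk3b (-0.03 to 0.11) took both signs. The protein-coding and CPM alternatives were added after seeing the data. The summed level of the 8 genes was 252 in the second table, 424 rescaled to nuclear protein-coding genes and 146 in FPKM, against 174 TPM. At 1.5-fold, 3 members were lower, and over all genes 544 were lower and 204 higher. Of these members, Pik3ca fell short of 1.5-fold over protein-coding transcripts alone, at -0.42, and in CPM, at -0.50. It also fell short in expected counts scaled by TMM (-0.42) or by the median of ratios between the libraries (-0.44). With a mean count of at least 200, 111 genes were lower and 30 higher, with a pseudocount of 1, 98 and 27, and with no filter 302 and 93. By counts not divided by length, the family shares were 76.6% for Irs1, 23.3% for Irs2, 72.8% for Pik3r1 and 72.0% for Gsk3b. In the second table Akt1 took 33.1% and Akt2 66.9% of the pair. The second table's list medians were -0.088 for receptors, adaptors and their brakes, 0.061 for mTORC2 subunits, 0.045 for substrates and effectors and -0.027 for genes raised by insulin, whereas its median over all genes was -0.10. The cause of these differences was not tested. With 1 group of 2 libraries, no spread between conditions can be had.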

Other observations

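All 8 listed genes known to rise when insulin signalling is low were at 1 TPM or more in both libraries. Pdk4, which shuts pyruvate out of oxidation, had 590.17 TPM in replicate 2, against 590.81 TPM in replicate 1, and was the highest of its list. Trim63, the muscle ubiquitin ligase MuRF1, had 108.53 TPM in replicate 2, against 135.97 TPM in replicate 1, with intervals apart. Cited2, which encodes a transcriptional co-regulator, had 18.59 TPM in replicate 2, against 21.1 TPM in replicate 1. Ccng2, an atypical cyclin, was the lowest and had the largest ratio, at 4.57 TPM in replicate 2, against 3.28 TPM in replicate 1, a log2 ratio of 0.47. The median of the 8 genes was -0.10, with 2 intervals apart lower and 1 higher, against 9.39% and 9.5% of all genes tested.

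Genes known to be raised by insulin had a median log2 ratio of 0.19 over 5 genes. The intervals of 1 were apart, higher in replicate 2, against 9.5% of all genes tested. Hk2, the hexokinase that traps glucose in muscle, was the highest at 84.11 TPM in replicate 2, against 70.34 TPM in replicate 1. Acly, which makes cytosolic acetyl-CoA, was the lowest at 5.51 TPM in replicate 2, against 5.76 TPM in replicate 1. Fasn, the fatty acid synthase, had the largest ratio, at 8.12 TPM in replicate 2, against 6.57 TPM in replicate 1. The feeding state of the mice is not given in the labels.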
